A study of Mus musculus with 35 samples.

Results

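The genes described here are Gata3, Elf3, Ehf, Cebpb, Tfap2c, Grhl2, Spdef, Tbx3, Etv1 and Runx1, 10 epithelial transcription factors that are commonly grouped as regulators of the luminal lineage of the mammary gland. They were chosen by gene symbol, and all 10 were found among the 19937 genes of the array. Where a gene had several probe sets, the brightest by its mean over the 35 samples stood for it. In the study, cells were sorted from 4th mammary glands and their RNA was measured on Affymetrix arrays, to ask how a past pregnancy changes each cell population. The parous mice were mated at 42 days of age, lactated for 21 days and were then left for 40 days of involution. The nulliparous mice were virgins of matching age. The sources used here do not give the strain or the age at collection, and the labels name no engineered allele and no drug.

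Each sample was a pool of 5 mice, sorted by surface markers into 1 of 6 populations. The stromal cells, the total epithelial cells, the luminal Sca1-negative and Sca1-positive cells (both CD24-high) and the basal CD49f-low cells were taken as 10000 cells a sample. The basal CD49f-high cells were taken as 2000 cells a sample. The 12 groups had 3 samples each, but n = 2 for the parous basal CD49f-high population, where the submitters left out 1 array that hybridised poorly. All values below are on the deposited log2 scale, so a difference of 1 is a doubling of signal, and levels are compared between populations for 1 gene at a time.

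A mammary duct is built of an inner luminal layer, which holds hormone-sensing cells and the progenitors that make milk-secreting alveolar cells, and an outer basal layer of contractile myoepithelial cells and stem-like cells. GATA3 is the best known luminal regulator and is needed to form and maintain luminal cells. ELF3 and EHF are ETS factors restricted to epithelia, C/EBPβ is needed for lobuloalveolar growth, AP-2γ (the product of Tfap2c) acts in ductal growth, and GRHL2 maintains epithelial junctions. TBX3 is needed to form the mammary bud, RUNX1 is a partner of CBFβ, SPDEF is an ETS factor of secretory epithelia, and ETV1 belongs to the PEA3 group of ETS factors.

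The sorted cells carried the markers of their labels. All 9 basal and myoepithelial markers tested were higher in basal than in luminal cells, with a median difference of 3.47, and 6 of 6 pan-luminal markers were lower, with a median of -1.72. The hormone-sensing markers were higher in Sca1-positive luminal cells in 5 of 5 cases, with a median of 1.53. Of 6 markers of progenitors and alveolar cells, 5 were lower there, with a median of -2.80, and 6 of 6 fibroblast markers were higher in stroma than in total epithelium, with a median of 2.80. One limit concerns stroma: the mean of the pan-luminal markers was 8.62 and 9.28 in the parous and nulliparous stromal samples numbered 2, against 7.04 to 8.07 in the other stromal samples. Across all genes, samples of a group correlated with Pearson's r between 0.963 and 0.991.

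Promoter windows were at hand for 6 of the 10 genes, as 8 windows of 300 bases, from 250 bases before to 50 after a transcription start. The sequences are from RefSeq on the mouse build GRCm38.p6. Those of Gata3, Etv1 and Runx1 are shown as examples, and Etv1 and Runx1 each have several listed starts. Elf3 and Cebpb, whose windows are not shown, differed between populations too. Sequences are written 5′ to 3′ on the gene's strand, in lower case with motif matches in capitals. The windows lie at chr2:9878551-9878850 on the minus strand for Gata3, chr12:38779832-38780131 and chr12:38783461-38783760 on the plus strand for Etv1, and chr16:92697280-92697579 and chr16:92826025-92826324 on the minus strand for Runx1.
Gata3: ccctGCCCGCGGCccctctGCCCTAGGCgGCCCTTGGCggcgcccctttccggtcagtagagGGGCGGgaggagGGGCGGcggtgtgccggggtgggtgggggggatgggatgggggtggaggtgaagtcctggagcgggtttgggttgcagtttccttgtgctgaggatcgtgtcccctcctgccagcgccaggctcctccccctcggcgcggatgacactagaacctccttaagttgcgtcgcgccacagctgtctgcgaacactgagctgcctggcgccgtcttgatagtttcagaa
Etv1, first window: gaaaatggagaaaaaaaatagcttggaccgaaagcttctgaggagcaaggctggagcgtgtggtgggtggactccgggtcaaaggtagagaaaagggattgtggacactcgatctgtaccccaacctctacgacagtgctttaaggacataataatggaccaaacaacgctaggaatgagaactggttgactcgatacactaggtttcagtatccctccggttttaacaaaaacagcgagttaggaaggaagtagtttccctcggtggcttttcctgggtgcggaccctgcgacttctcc
Etv1, second window: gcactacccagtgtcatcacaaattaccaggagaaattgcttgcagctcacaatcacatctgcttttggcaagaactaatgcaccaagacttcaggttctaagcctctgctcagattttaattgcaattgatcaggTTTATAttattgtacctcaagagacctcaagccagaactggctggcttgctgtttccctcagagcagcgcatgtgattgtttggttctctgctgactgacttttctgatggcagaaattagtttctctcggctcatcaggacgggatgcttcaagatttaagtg
Runx1, first window: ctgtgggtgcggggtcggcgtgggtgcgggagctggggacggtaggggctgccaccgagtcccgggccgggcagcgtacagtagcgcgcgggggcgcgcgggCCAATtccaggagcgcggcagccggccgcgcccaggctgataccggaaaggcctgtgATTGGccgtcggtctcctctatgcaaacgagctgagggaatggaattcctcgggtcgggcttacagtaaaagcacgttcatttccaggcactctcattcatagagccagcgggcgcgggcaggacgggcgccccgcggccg
Runx1, second window: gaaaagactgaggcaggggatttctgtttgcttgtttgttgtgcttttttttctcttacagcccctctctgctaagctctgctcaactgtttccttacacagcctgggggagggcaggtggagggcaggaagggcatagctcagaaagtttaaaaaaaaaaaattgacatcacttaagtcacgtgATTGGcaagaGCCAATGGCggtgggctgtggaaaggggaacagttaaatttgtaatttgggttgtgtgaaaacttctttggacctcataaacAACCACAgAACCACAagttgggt

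Motifs were searched on both strands as plain letters, and each was counted in all 32851 windows of that length. The motifs for the factor families were AGATAA for GATA factors (in 11.2% of windows), ACCGGAAGT for ETS factors (1.1%), TTGCGCAA for C/EBP (0.183%), GCCNNNGGC for AP-2 (16.6%), AACCGGTT for grainyhead-like factors (0.146%), AGGTGTGA for T-box factors (1.28%) and TGTGGTT for RUNX factors (5.27%). The general promoter motifs were GGGCGG, the GC box (35.7%), CCAAT (37.4%) and TATAAA (13.6%). The Gata3 window held 3 AP-2 matches and 2 GC boxes and had a GC content of 67.3%, against a median of 52.7% over all windows. The second Runx1 window held 2 RUNX matches, 1 AP-2 match and 2 CCAAT matches, and the AP-2 match shared 5 bases with a CCAAT match. The first Runx1 window held 2 CCAAT matches. In Etv1 the second window held 1 TATAAA match, on the opposite strand (written TTTATA), and the first held none of the motifs searched. Elf3, Cebpb and Spdef also had a window, and Ehf, Tfap2c, Grhl2 and Tbx3 are named only. A match is a run of letters and not a measured binding site.

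The 10 genes did not share 1 pattern across the 6 populations. Over the mean of both reproductive histories, Ehf spanned 3.51 log2 units between its highest and lowest population, Grhl2 3.19, Gata3 3.13, Tfap2c 2.74, Elf3 2.68, Runx1 2.55 and Etv1 2.22. Tbx3 spanned 1.21 and Cebpb 0.84. Spdef spanned 0.31, and its level lay between 6.27 and 7.04 in all 35 samples.

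**Figure D1:**
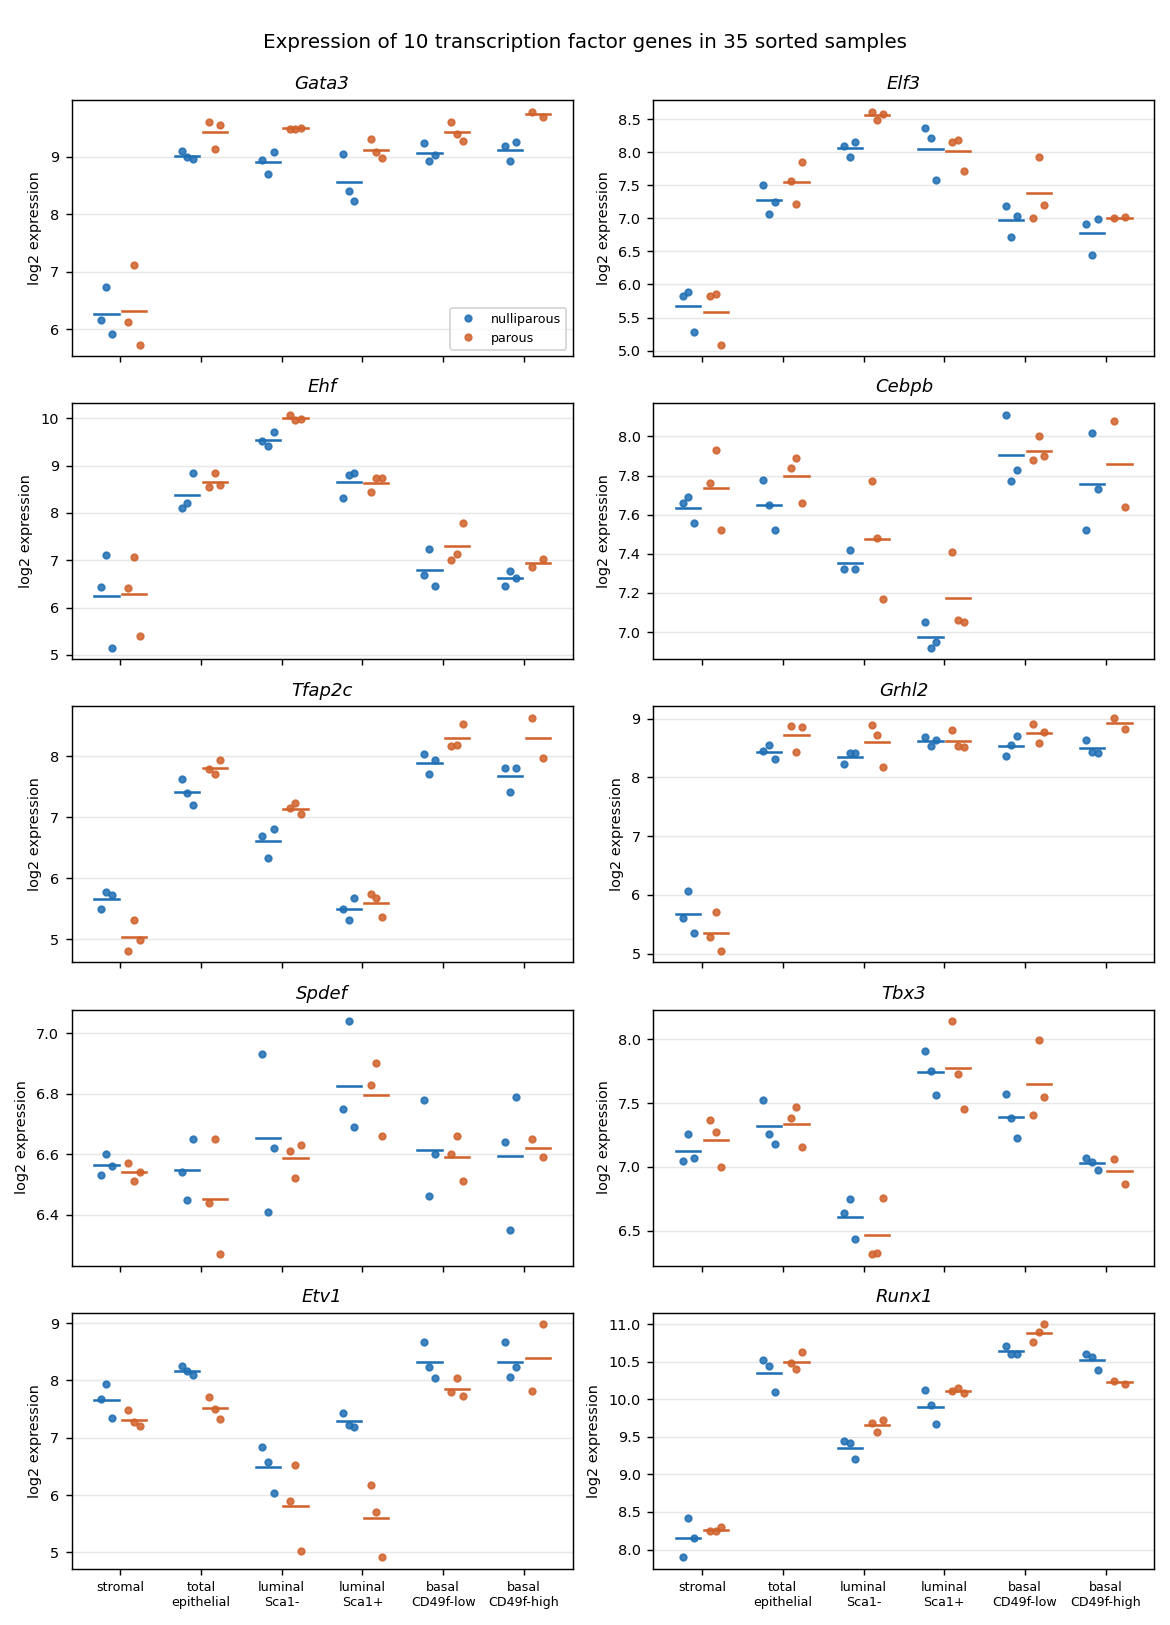
Level of each of the 10 genes in the 6 populations, on the deposited log2 scale (vertical axis), with a point per sample, parous samples in orange and nulliparous ones in blue, a line at each group mean and an axis range of its own for each gene. Ehf and Elf3 were highest in the luminal populations, Tfap2c and Etv1 in the basal ones, and Spdef was nearly level across all 35 samples.

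Alone among the 10 genes, Elf3 and Ehf passed the test with a higher level in luminal than in basal cells. With limma, at an adjusted p under 0.05 over all genes, 7 of the 10 genes differed between the 11 basal and 12 luminal samples, against 35% of all genes tested. Elf3 and Ehf were lower in basal cells, as 19.5% of all genes were. Gata3, Cebpb, Tfap2c, Etv1 and Runx1 were higher in basal cells, as 15.5% of all genes were. Grhl2, Spdef and Tbx3 did not pass the test. The median difference, basal minus luminal, was 0.22 over the 10 genes and 0 over all genes.

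Ehf, the epithelial ETS factor, had the largest luminal excess. Its level ran from 8.31 through a median of 9.13 to 10.07 in the luminal samples and from 6.46 through 6.86 to 7.79 in the basal samples. No basal sample reached the lowest luminal one, and the difference was -2.29 (SE 0.18, limma adjusted p = 9.98e-12). Elf3, its relative, had luminal values from 7.58 to 8.61 with a median of 8.17, and basal values from 6.45 to 7.93 with a median of 7.0. The ranges overlapped because 1 parous basal CD49f-low sample stood at 7.93, and the difference was -1.13 (SE 0.12, limma adjusted p = 1.06e-08).

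Tfap2c ran the other way. Its basal values lay between 7.42 and 8.63 with a median of 7.97, and its luminal values between 5.32 and 7.23 with a median of 6.04. The 2 sides did not overlap, and the basal excess was 1.83 (SE 0.09, limma adjusted p = 2.97e-16). Etv1 had basal values from 7.73 to 8.98 with a median of 8.06 and luminal values from 4.92 to 7.44 with a median of 6.35. Its basal excess of 1.93 (SE 0.16, limma adjusted p = 3.42e-11) was again without overlap, and another Etv1 probe set gave 1.5 (SE 0.18, limma adjusted p = 8.92e-08). Runx1 was at 10.21 to 11 in basal cells and at 9.20 to 10.15 in luminal cells. That difference was 0.81 (SE 0.06, limma adjusted p = 8.86e-12). Ehf, Tfap2c, Etv1 and Runx1 were thus the 4 of the 10 genes without overlap between the sides, against 4.67% of all genes.

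For Cebpb and Gata3 the sides overlapped. Cebpb was at 7.52 to 8.11 in basal and at 6.92 to 7.77 in luminal samples, a basal excess of 0.62 (SE 0.08, limma adjusted p = 1.57e-07). Gata3, the reference luminal factor, was at 8.92 to 9.78 in basal and at 8.23 to 9.50 in luminal samples. Its basal excess of 0.31 (SE 0.12, limma adjusted p = 0.0478) lay just inside the threshold. It lost the call when any of 23 of the 35 samples was left out, with an adjusted p between 0.0118 and 0.0943 over the 35 fits, and also with array weights (0.0807) and in either history alone (nulliparous 0.103, parous 0.31). In Gata3 the basal CD49f-high, basal CD49f-low, total epithelial and luminal Sca1-negative means lay between 9.20 and 9.43, and no neighbouring pair among them differed beyond the 95% interval of the difference.

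Grhl2, Tbx3 and Spdef did not pass the test between basal and luminal cells. The differences were 0.13 for Grhl2 (limma adjusted p = 0.301), 0.11 for Tbx3 (0.356) and -0.11 for Spdef (0.216). Grhl2, which maintains epithelial junctions, had means between 8.47 and 8.71 in all 5 epithelial populations, and no neighbouring pair of these 5 differed beyond its interval. Because each sample is RNA of many cells, fewer cells that express a gene and less RNA of it per cell cannot be told apart in any of these comparisons.

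**Figure D2:**
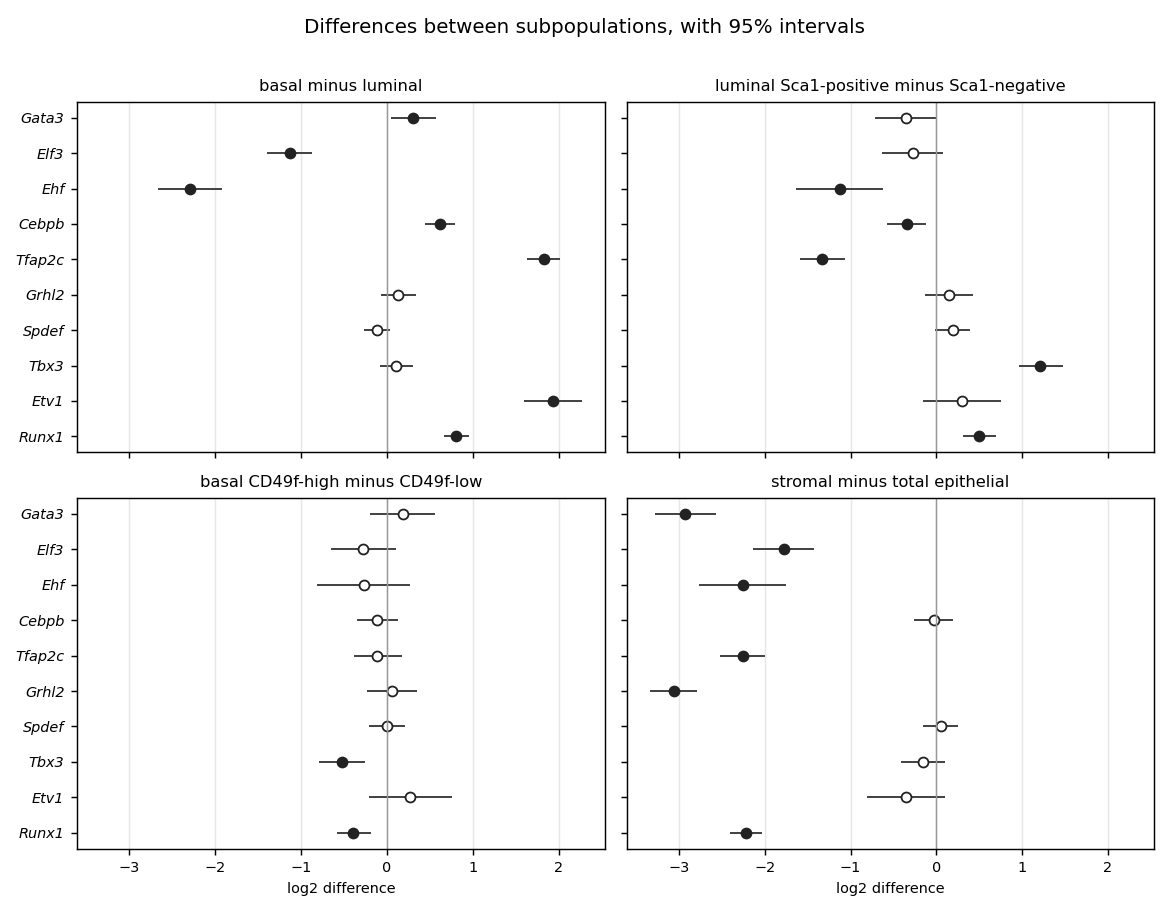
Differences between populations for the 10 genes, in log2 units (horizontal axis), with 95% confidence intervals of the limma fit and filled points where the adjusted p was under 0.05. In basal minus luminal cells, Ehf lay at -2.29 and Etv1 at 1.93, on opposite sides of 0.

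Within the luminal layer, Tfap2c, Tbx3 and Ehf had the largest differences between the Sca1-positive and the Sca1-negative cells. Of the 10 genes, 5 passed the test, against 16.1% of all genes: Tbx3 and Runx1 were higher in Sca1-positive cells, as 9% of all genes were, and Ehf, Cebpb and Tfap2c lower, as 7.11% were. The median difference was -0.06 over the 10 genes and -0.01 over all genes. Ehf, Tfap2c and Tbx3 had no overlap between the 6 samples on each side, which was so for 8.38% of all genes.

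Tbx3 was at 7.45, 7.73 and 8.14 in parous and at 7.56, 7.75 and 7.91 in nulliparous Sca1-positive cells. In Sca1-negative cells it was at 6.32, 6.33 and 6.76 in parous and 6.44, 6.64 and 6.75 in nulliparous samples. All 6 Sca1-positive samples were above all 6 Sca1-negative ones, by 1.21 on average (SE 0.12, limma adjusted p = 6.05e-09). Sca1-positive luminal cells had the highest Tbx3 mean of the 6 populations, 7.76, although basal CD49f-low cells, at 7.52, did not differ from them beyond the interval (-0.01 to 0.48). Sca1-negative luminal cells had the lowest, 6.54. The 2 luminal populations thus stood at opposite ends of the Tbx3 order, and the mean of both was 0.11 below that of basal cells.

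Tfap2c was between 6.34 and 7.23 in the 6 Sca1-negative samples and between 5.32 and 5.75 in the 6 Sca1-positive ones, a difference of -1.33 (SE 0.12, limma adjusted p = 1.85e-09). The Sca1-positive mean, 5.55, did not differ from the stromal mean, 5.35, beyond the interval (-0.06 to 0.45). The order of Tfap2c across the gland thus began with the basal populations, CD49f-low at 8.10 and CD49f-high at 7.99, which did not differ beyond their interval. Total epithelium followed at 7.62 and Sca1-negative luminal cells at 6.88, and the Sca1-positive luminal cells and stroma came last.

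Ehf was at 9.41 to 10.07 in Sca1-negative cells and at 8.31 to 8.85 in Sca1-positive cells (difference -1.13, SE 0.24, limma adjusted p = 0.00106). Ehf thus stepped down from Sca1-negative to Sca1-positive to basal cells, while Elf3 did not pass the test between the 2 luminal populations (-0.27, limma adjusted p = 0.348). Runx1 was at 9.67 to 10.15 in Sca1-positive and 9.20 to 9.72 in Sca1-negative cells (0.50, SE 0.09, limma adjusted p = 6.55e-05). Cebpb was at 6.92 to 7.41 against 7.17 to 7.77 (-0.34, SE 0.11, limma adjusted p = 0.0236). The Cebpb call was lost without any 1 of 5 samples: Sca1-negative parous 1 or nulliparous 2, or Sca1-positive parous 2, parous 3 or nulliparous 2. Basal and myoepithelial markers moved with Tfap2c and Cebpb, which were higher in basal cells: 6 of 9 were called lower in Sca1-positive cells, with a median of -0.76. Their means were 6.17 to 6.66 in Sca1-positive and 6.76 to 7.48 in Sca1-negative samples, without overlap, and their part in these 2 differences was not tested. The Cebpb call was lost in either history alone too (limma adjusted p = 0.119 in nulliparous and 0.346 in parous samples). In nulliparous samples alone the Ehf difference was -0.89 (limma adjusted p = 0.169). Gata3 (-0.36, limma adjusted p = 0.168), Grhl2 (0.15, 0.548), Spdef (0.19, 0.188) and Etv1 (0.30, 0.452) did not pass the test. In nulliparous samples alone Etv1 was higher in Sca1-positive cells, by 0.81 (limma adjusted p = 0.0278).

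Within the basal layer, Tbx3 and Runx1 were lower in CD49f-high than in CD49f-low cells, and the other 8 genes did not pass the test. The share of all genes called was 3.54%. Tbx3 was at 6.87 to 7.07 in the 5 CD49f-high samples and at 7.23 to 7.99 in the 6 CD49f-low samples. These ranges did not overlap, as in 0.928% of all genes, and the difference was -0.52 (SE 0.13, limma adjusted p = 0.0184). Runx1 was at 10.21 to 10.61 against 10.60 to 11 (-0.39, SE 0.09, limma adjusted p = 0.016), with a slight overlap. The Runx1 difference was -0.66 in parous samples alone and -0.12 in nulliparous samples alone. The Tbx3 call was lost without basal CD49f-low parous 2 or basal CD49f-high parous 3. With array weights neither call was made (limma adjusted p = 0.0983 for Tbx3 and 0.0851 for Runx1), nor in a fit of these populations alone (0.175 and 0.089). Of markers of other cell types, 2 of 6 for fibroblasts (median -0.36) and 2 of 5 for endothelium (median -0.75) were called lower in CD49f-high cells, and their part in the Tbx3 and Runx1 values was not tested. The populations also differed in the number of cells sorted, 2000 against 10000, so cell number and population cannot be told apart here.

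Stroma set 6 of the factors apart from epithelium. Against total epithelial cells, Gata3, Elf3, Ehf, Tfap2c, Grhl2 and Runx1 were lower in stroma and none was higher, where 29.2% of all genes were called in either direction. The median difference was -2.0 over the 10 genes and 0.02 over all genes. In these 6 the stromal and epithelial samples did not overlap, as in 16.8% of all genes. Grhl2 was at 5.05 to 6.06 in stroma and 8.31 to 8.88 in total epithelium, a difference of -3.06 (SE 0.13, limma adjusted p = 8.99e-18). Gata3 was at 5.73 to 7.12 against 8.96 to 9.60 (-2.93, SE 0.17). The difference was -2.26 for Tfap2c (SE 0.12), -2.26 for Ehf (SE 0.24), -2.22 for Runx1 (SE 0.09, limma adjusted p = 1.32e-18) and -1.78 for Elf3 (SE 0.17).

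The highest stromal values of Gata3, 7.12 and 6.73, and of Ehf, 7.06 and 7.12, were those of the parous and nulliparous samples numbered 2. They are the stromal samples with the highest pan-luminal markers, and the part of luminal cells in the stromal values was not tested. Runx1, which also acts in blood and stromal cells, was at 7.90 to 8.42 in stroma. Cebpb (-0.03), Spdef (0.05), Tbx3 (-0.16) and Etv1 (-0.36) did not pass the test between stroma and total epithelium. Over both histories, Etv1 had a stromal mean of 7.49, above that of Sca1-positive luminal cells by 1.04 (95% interval 0.60 to 1.49, limma adjusted p = 0.000248). In parous samples alone these means were 7.32 and 5.60. In nulliparous samples they were closer, 7.66 and 7.29, with overlapping ranges of 7.35 to 7.94 and 7.19 to 7.44. On the means over both histories, stroma was therefore in the middle of the Etv1 order, between the basal and the luminal populations.

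**Figure D3:**
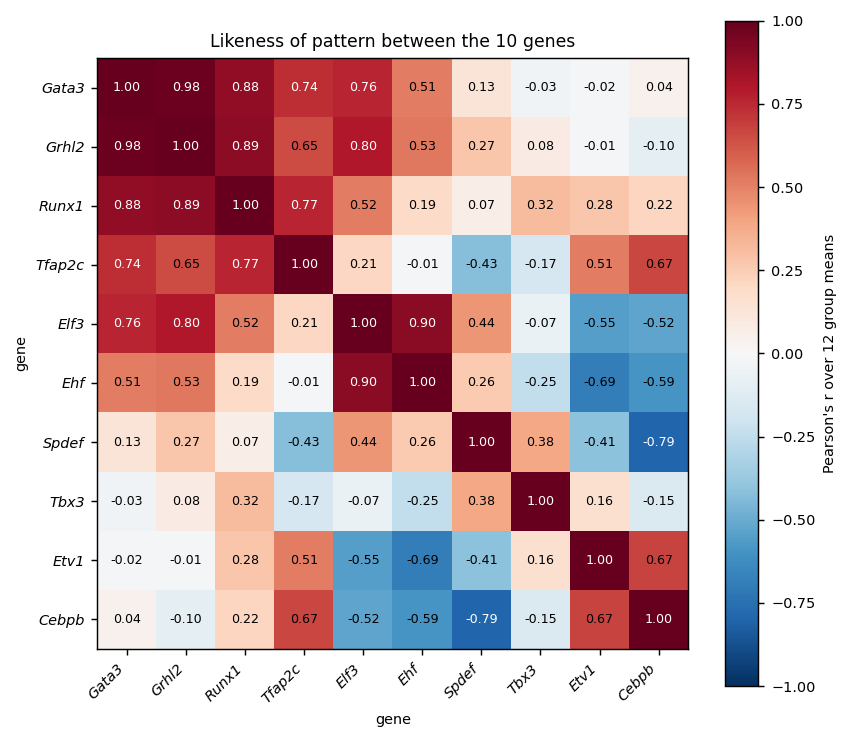
Pearson's r of the 12 group means for each of the 45 pairs among the 10 genes, as a coloured grid with genes on both axes and r from -1 to 1. Gata3 and Grhl2 had the highest r, 0.977, and Cebpb and Spdef the lowest, -0.793.

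Over the 12 group means, the pairs of factors with the most similar pattern were Gata3 and Grhl2 (r = 0.977), Elf3 and Ehf (0.902) and Grhl2 and Runx1 (0.892). The least similar were Cebpb and Spdef (-0.793), Ehf and Etv1 (-0.692) and Ehf and Cebpb (-0.588). Of the 45 pairs, 15 had r above 0.5 and 16 below 0, with a median of 0.209. All these points share the same 35 arrays, and the low stromal groups weigh in the high values, so the correlations are descriptions.

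Among genes whose group means spanned at least 1 log2 unit, those most like each factor were also found from the 12 group means. Gata3 (r = 0.996) and Grhl2 (0.988) both had Tfap2a, the gene of AP-2α, as the gene most like them, followed by Shroom3 (0.986) for Gata3 and Map7 (0.982) for Grhl2. The genes most like Tfap2c were Larp1b (0.991) and Cadm1 (0.978). For Ehf they were Rhpn2 (0.977) and Arhgef38 (0.967), for Elf3 Wwc1 (0.979) and Fam83h (0.977), and for Runx1 Plek2 and Perp (both 0.957). For Cebpb they were Frmd6 (0.978) and Icam1 (0.969), for Etv1 Poglut2 (0.927) and Cox6b2 (0.921), and for Tbx3 Wdfy3 (0.888) and Clock (0.834). Spdef, with its small span, was most like Sdhaf2 (0.884) and Uqcr10 (0.882). Over the 35 samples Tfap2a was again the gene most like both Gata3 (0.980) and Grhl2 (0.974). Other likenesses were lower there: Sdhaf2 and Uqcr10 fell to ranks 240 and 145 for Spdef (0.450 and 0.489), and Poglut2 to rank 51 for Etv1 (0.767).

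The comparison of parous with nulliparous mice is the question of the study. Averaged over the 4 sorted epithelial populations, Gata3 and Tfap2c were higher and Etv1 was lower after pregnancy. The Etv1 effect was uneven, at -1.69 in Sca1-positive luminal and 0.08 in basal CD49f-high cells. On the mean of the 4 parity effects, these 3 of the 10 genes passed the test, against 6.2% of all genes. The median effect was 0.17 over the 10 genes and 0 over all genes.

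Gata3 was at 9.49, 9.49 and 9.50 in parous Sca1-negative luminal cells and at 8.95, 8.70 and 9.09 in nulliparous ones. In Sca1-positive luminal cells it was at 9.31, 9.08 and 8.98 against 9.04, 8.41 and 8.23. This was the 1 of the 5 epithelial populations in which parous and nulliparous Gata3 values overlapped. In basal cells Gata3 was at 9.60, 9.40 and 9.27 against 9.23, 8.92 and 9.03 in the CD49f-low population. In the CD49f-high population it was at 9.78 and 9.69 against 9.18, 8.92 and 9.26. The mean over these 4 populations went from 8.91 to 9.44, by 0.53 (SE 0.12, limma adjusted p = 0.0068), and the effect was positive in all 5 epithelial populations, from 0.36 to 0.62. In no single population did Gata3 pass the test.

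Tfap2c was higher in parous samples by 0.41 on the mean of the 4 populations (SE 0.09, limma adjusted p = 0.00399). In Sca1-negative luminal cells it was at 7.15, 7.23 and 7.05 in parous and 6.69, 6.34 and 6.81 in nulliparous samples. In basal CD49f-low cells it was at 8.17, 8.19 and 8.53 against 8.04, 7.71 and 7.94. Both pairs of groups were apart, whereas the Sca1-positive groups overlapped, at 5.75, 5.67 and 5.36 against 5.50, 5.32 and 5.68. The effect was positive in all 5 epithelial populations, from 0.09 to 0.62.

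**Figure D4:**
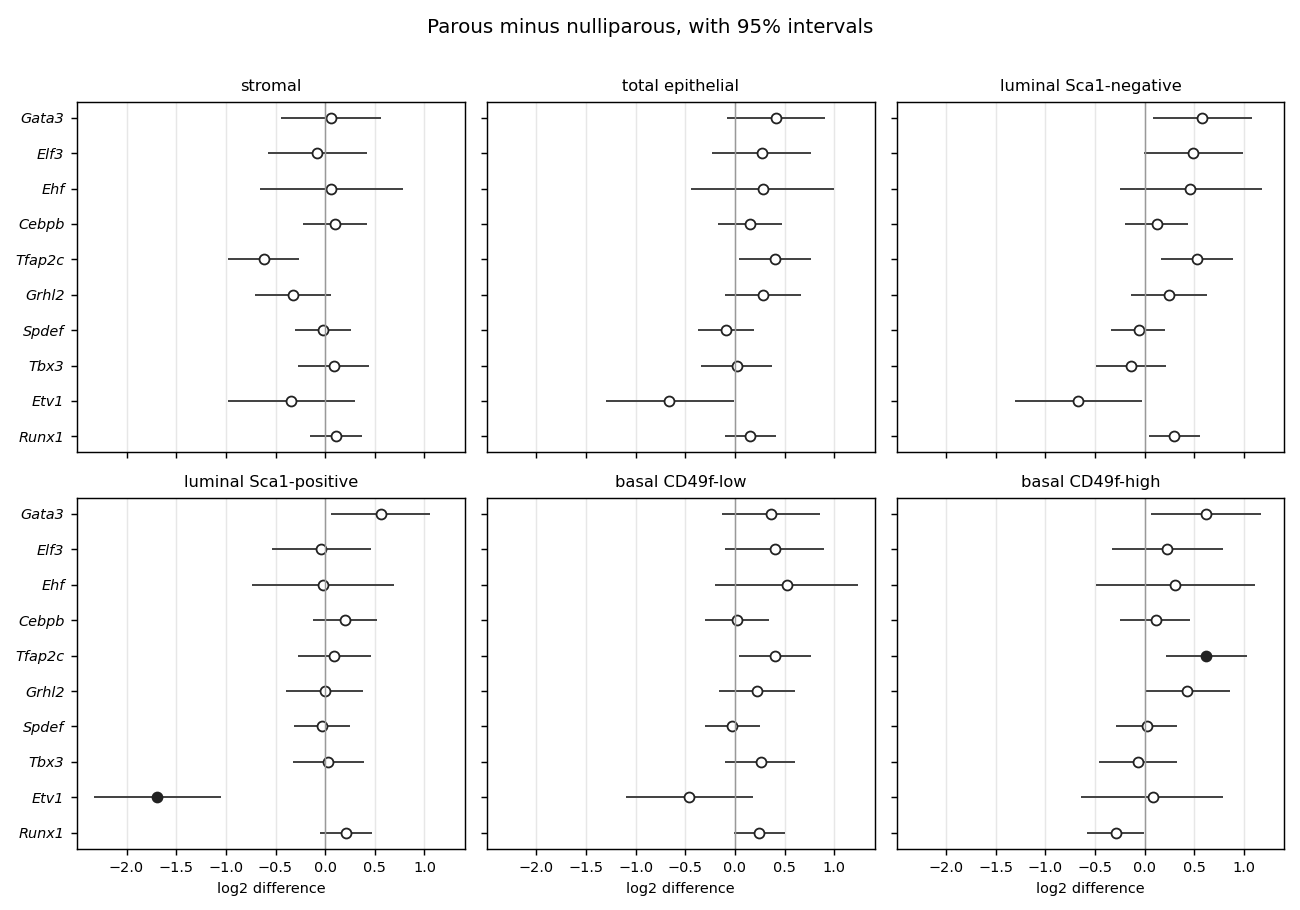
Parity effect (parous minus nulliparous) on each of the 10 genes in the 6 populations, 1 panel each, in log2 units (horizontal axis), with 95% confidence intervals of the limma fit and filled points where the adjusted p was under 0.05. Gata3 lay above 0 in every epithelial population, and Etv1 in Sca1-positive luminal cells had the largest effect, -1.69.

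In these means the proliferation markers Mki67, Top2a and Birc5 moved too: 3 of 3 were lower in parous cells, with a median of -1.20. Of the basal and myoepithelial markers, 4 of 9 were higher, with a median of 0.30, and Gata3, Tfap2c and Etv1 were all higher in basal than in luminal cells. Of the progenitor and alveolar markers 2 of 6 were higher and 1 was lower, with a median of 0.73. Fibroblast markers had 1 of 6 lower, and macrophage and dendritic cell markers 1 of 5 higher. The part of these markers in the results for Gata3, Tfap2c and Etv1 was not tested. Samples of different populations that carry the same history and number may come from the same mice. With that pool as a random block the 3 calls held, with limma adjusted p = 0.0185 for Gata3, 0.011 for Tfap2c and 0.0173 for Etv1. That block used a single correlation for all genes, 0.07, so stronger sharing within a pool for any of these genes was not accounted for.

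Etv1 had the largest parity effect of the 10 genes, in Sca1-positive luminal cells. Its level was 6.18, 5.70 and 4.92 in parous and 7.44, 7.23 and 7.19 in nulliparous samples. All 3 parous samples were below all 3 nulliparous ones, and the mean fell from 7.29 to 5.60, an effect of -1.69 (SE 0.31, limma adjusted p = 0.00317). Of all genes, 0.607% were called in this population, and Etv1 was the 1 called among the 10. The effect lay between -1.98 and -1.35 when each of the 35 samples was left out in turn, and the adjusted p stayed at or below 0.047.

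Another Etv1 probe set, whose 12 group means correlated with those of the first at r = 0.952, gave 5.91, 5.16 and 5.16 in parous and 7.18, 6.34 and 6.87 in nulliparous Sca1-positive cells. The groups were apart again, but the effect of -1.39 (SE 0.35) did not pass the test, with limma adjusted p = 0.0761.

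The Etv1 effects in the other populations did not pass the test. In Sca1-negative luminal cells the values were 5.90, 6.52 and 5.02 against 6.84, 6.58 and 6.03, an effect of -0.67 with overlapping groups. In basal CD49f-low cells they were 7.79, 8.05 and 7.73 against 8.67, 8.24 and 8.05, an effect of -0.46. In basal CD49f-high cells the effect was 0.08, with parous samples at 7.82 and 8.98 on both sides of all 3 nulliparous ones, at 8.67, 8.06 and 8.23. In total epithelium Etv1 was at 7.72, 7.50 and 7.33 against 8.25, 8.17 and 8.10, and all parous samples were lower, an effect of -0.66. The other probe set did not show this: it gave 7.02, 6.75 and 7.50 against 7.45, 6.87 and 7.40, with overlap and an effect of -0.15. In basal CD49f-high cells it gave 0.59 (limma adjusted p = 0.42) in place of 0.08, and in Sca1-negative luminal and basal CD49f-low cells -0.68 and -0.69.

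On the mean of the 4 sorted populations the Etv1 effect was -0.69 (SE 0.16, limma adjusted p = 0.00674). This call was lost when the nulliparous samples numbered 1 were left out in every population (-0.54, limma adjusted p = 0.0719). It was not made with the other Etv1 probe set either (-0.54, limma adjusted p = 0.077).

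Whether the Etv1 effect differed between populations was tested directly. The effect in Sca1-positive cells minus that in Sca1-negative cells was -1.02 (SE 0.44, 95% interval -1.91 to -0.13), and the limma adjusted p was 0.76. Of all genes, 0.0953% were called in that comparison. The mean luminal effect minus the mean basal effect was -0.99 (SE 0.32, limma adjusted p = 0.11), where 2.04% of all genes were called. With the replicate number as a block that difference was -1.04 (limma adjusted p = 0.0407). Without the block, 0 of the 10 genes passed either limma test. At an unadjusted p under 0.05 there were 1 in the former and 2 in the latter, and the share of all genes at that threshold was not counted.

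**Figure D5:**
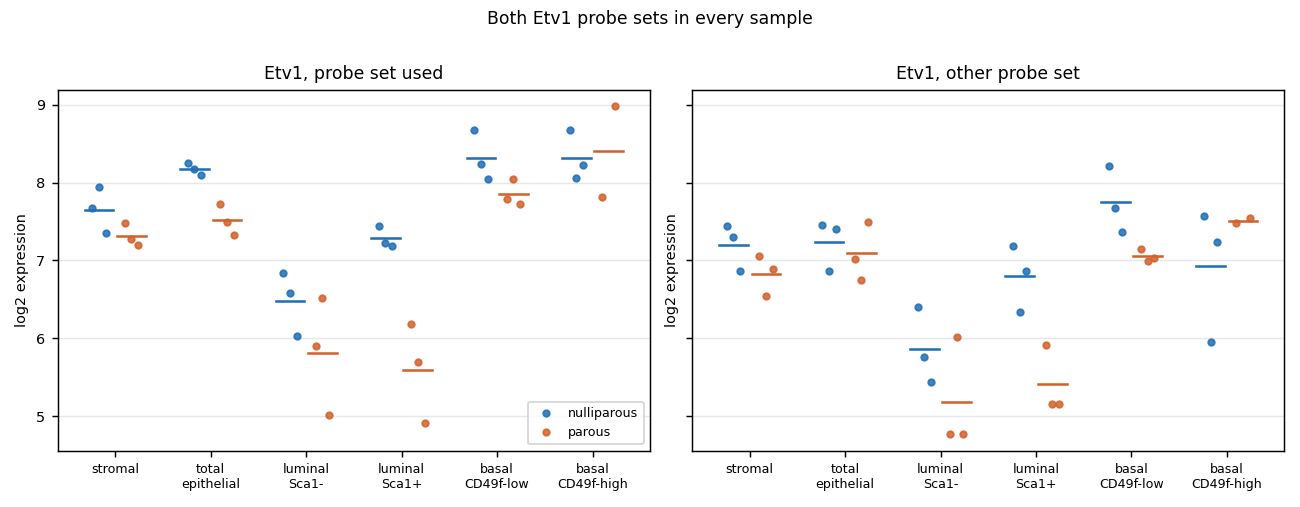
Level of Etv1 by the 2 probe sets measured for it, on the deposited log2 scale (vertical axis), in the parous and nulliparous samples of each population, with a point per sample and a line at each group mean. In Sca1-positive luminal cells the parous samples lay at or below 6.18 and the nulliparous ones at or above 6.34 for both probe sets.

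Other markers differed in the same Sca1-positive samples. The mean of 3 proliferation markers was 5.39 to 6.09 in parous and 6.32 to 7.24 in nulliparous samples. Progenitor and alveolar markers were at 7.65 to 8.06 in parous against 6.77 to 7.61 in nulliparous samples, with 1 of 6 called higher and a median of 0.56. Fibroblast markers were at 6.27 to 6.50 against 6.58 to 6.73, with 1 of 6 called lower. Endothelial markers were at 5.56 to 6.08 against 4.67 to 5.23, with 0 of 5 called. Basal and myoepithelial markers, which mark the layer where Etv1 was highest, were at 6.42 to 6.66 against 6.17 to 6.59, with 1 of 9 called higher and 0 lower. The part of these differences in the Etv1 result was not tested.

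In basal CD49f-high cells, Tfap2c was the 1 factor of the 10 that passed the test, where 9.06% of all genes did. It was at 8.63 and 7.97 in parous and at 7.81, 7.42 and 7.81 in nulliparous samples. The parous samples were above the nulliparous ones, with an effect of 0.62 (SE 0.19, limma adjusted p = 0.0398). The call was lost with array weights (limma adjusted p = 0.251) and in a fit of this population alone (0.504). Without parous 2 the effect was 0.29 (limma adjusted p = 0.531), and without nulliparous 2 it was 0.49 (limma adjusted p = 0.181). In this population 6 of the 10 genes had groups that did not overlap, against 27.7% of all genes: Gata3, Elf3, Ehf, Tfap2c and Grhl2 upward, and Runx1, with an effect of -0.29, downward.

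These samples differed in other markers as well. The proliferation markers were at 5.50 to 5.51 in parous and 6.64 to 8.61 in nulliparous CD49f-high samples, and 3 of 3 were called lower. The basal and myoepithelial markers were at 10.57 to 10.76 against 9.86 to 10.39, with 4 of 9 called higher. The progenitor and alveolar markers were at 8.13 to 8.34 against 5.82 to 6.86, with 2 of 6 called higher. Among the other lists, 1 of 5 endothelial and 1 of 5 hormone-sensing markers were called lower and 1 of 5 macrophage and dendritic cell markers higher. The part of these differences in the Tfap2c result was not tested.

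In the other 4 populations 0 of the 10 genes passed the limma test of parity. At an unadjusted p under 0.05 there were 5 in Sca1-negative luminal cells, 2 in total epithelium, 1 in basal CD49f-low cells and 1 in stroma. The share of all genes at that unadjusted threshold was not counted, so these counts are not a result about the 10 genes. In Sca1-negative luminal cells 1% of all genes were called. There Gata3 (0.58), Elf3 (0.49), Ehf (0.46), Tfap2c (0.53, limma adjusted p = 0.17) and Runx1 (0.30) were higher in every parous than in every nulliparous sample, 5 of the 10 genes against 17.7% of all genes. In the same samples basal and myoepithelial markers were at 7.28 to 7.48 in parous and 6.76 to 7.05 in nulliparous cells, with 3 of 9 called higher. Progenitor and alveolar markers were at 10.15 to 10.30 against 9.65 to 9.76, with 1 of 6 called lower, and proliferation markers at 5.40 to 5.98 against 6.34 to 8.02, with 1 of 3 called lower. The part of these markers in the values of the 5 genes was not tested. In total epithelium 0.446% of all genes were called, and the groups did not overlap in Gata3 (0.41), Tfap2c (0.40) and the Etv1 probe set used (-0.66), 3 of the 10 against 15%. In basal CD49f-low cells 0.968% of all genes were called, and the groups did not overlap in Gata3, Tfap2c and Runx1, 3 of the 10 against 14.3%. In Sca1-positive luminal cells the groups did not overlap in Etv1 and Cebpb, 2 of the 10 against 12.9%.

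Stroma was the population in which Tfap2c ran the other way. It was at 4.81, 5.32 and 4.99 in parous and at 5.49, 5.77 and 5.73 in nulliparous stromal samples, an effect of -0.62 (SE 0.17, limma adjusted p = 0.129). All 6 values lay below the lowest median of an array, 5.813. Tfap2c was the 1 of the 10 genes without overlap in stroma, against 15.9% of all genes, and 0.597% of all genes were called there. Some other markers were lower in parous stroma too, without overlap. Basal and myoepithelial markers, of the layer where Tfap2c was highest, had means of 7.57 to 7.85 in parous and 8.13 to 8.17 in nulliparous stroma, with 2 of 9 called lower. Endothelial markers were at 7.21 to 7.78 against 8.23 to 8.96, with 1 of 5 called lower, and fibroblast markers at 10.19 to 10.28 against 10.36 to 10.79, with 1 of 6 called lower. Progenitor and alveolar markers went the other way, with 1 of 6 called higher and a median of 0.54. Their means overlapped, at 6.93 to 8.07 in parous and 6.3 to 7.97 in nulliparous stroma. The part of all these markers in the Tfap2c values was not tested.

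Tested over all 6 populations, the parity effects on Tfap2c differed from each other (F = 6.77, limma adjusted p = 0.0178), where 2.8% of all genes did. Without the stromal effect, a choice made after these values were seen, F was 1.26 (limma adjusted p = 0.709) over the 5 epithelial populations. The call was also lost without stromal parous 1 or 3 or stromal nulliparous 2 or 3. Etv1 (limma adjusted p = 0.183) and Runx1 (0.316) did not pass this test.

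The other members of the same factor families, 25 of 26 of them measured, were also divided between the layers. In limma, 8 were higher in basal and 6 in luminal cells, as were 15.5% and 19.5% of all genes. The median difference was 0.09 against 0 over all genes. Etv5, a PEA3 factor like Etv1, had the largest basal excess, 1.78, followed by Cebpd, 0.94, and Tfap2b, 0.74. Grhl1 (-1.67), Elf5 (-1.57), the regulator of alveolar differentiation, and Ets2 (-0.98) had the largest luminal excess. Between the luminal populations, Tfap2b (0.87), Grhl3 (0.65) and Ets2 (0.33) were higher in Sca1-positive cells. Elf5 (-3.09), Cebpd (-1.55) and Etv5 (-0.80) were the largest of 5 that were lower. Of all genes, 9% were higher there and 7.11% lower. Between the basal populations Ets2 (-0.56) and Elf2 (-0.42) were lower in CD49f-high cells, where 3.54% of all genes were called. In stroma 9 were lower than in total epithelium, Tfap2b (-3.41), Tfap2a (-2.50) and Elf5 (-1.15) the most. The 3 that were higher were Gata6 (1.66), Tbx5 (1.18) and Elf4 (1.15). The median was -0.01 over the list, and 29.2% of all genes were called in either direction. On the mean parity effect Tfap2a, the AP-2 gene closest to Gata3 in pattern, was the 1 called, at 0.42, against 6.2% of all genes. In basal CD49f-high cells 2 of the 25 were called lower in parous samples, where 9.06% of all genes were called. For the luminal minus basal parity difference 2 of the 25 were called higher, where 2.04% of all genes were called.

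The list of other transcription factors and cofactors of luminal cells, 25 genes measured, also held Zeb1 and Zeb2, which repress epithelial genes. Of the 25, 11 were lower in basal cells and 7 higher, and Zeb1 and Zeb2 are included in all counts and medians of this list. Of all genes, 19.5% were lower and 15.5% higher. The median was -0.16 over the list and 0 over all genes. Pgr, the progesterone receptor gene (-2.30), Foxa1, the gene of a pioneer factor of hormone-sensing cells (-1.67), and Elf5 (-1.57), which is in both lists, had the largest luminal excess. Lmo4 (1.30), Id2 (1.17) and Zeb2 (0.57) were the most basal. In Sca1-positive luminal cells 7 were higher, led by Pgr (1.62), Foxa1 (1.28) and Myb (1.26), and 6 were lower. Of all genes, 9% and 7.11% were. In stroma Zeb1 (3.94) and Zeb2 (3.81), repressors of epithelial genes, were the highest of 7. Trps1 (-2.27), Sox9 (-2.02) and Klf5 (-1.69) were the lowest of 11. The share of all genes called there was 29.2%. After pregnancy, Id2 was higher in Sca1-negative luminal cells by 1.42 and Myb was lower in Sca1-positive cells, at -0.70. The shares of all genes called there were 1% and 0.607%. In basal CD49f-high cells Id2 (0.72) and Stat6 (0.54) were higher in parous samples, and Ovol1 (-1.33) and Klf5 (-1.09) lower. Of all genes, 9.06% were called in that population.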

How the data were processed

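RNA of sorted mouse mammary cells was measured on 35 Affymetrix gene arrays. The deposited table holds log2 expression values of 34760 probe sets, between 1.74 and 13.28. The submitters' processing notes name the affy package. Its version, the background correction and the normalization were not given in the labels or headers. Column medians lay between 5.813 and 5.924, so the values were used as deposited. The number of arrays, 2 or 3 a group, limits the precision. All columns were mapped to samples by name, with 0 left unmapped.

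Probe sets were named through the platform annotation: 21640 had 1 gene symbol, 1321 several and 11799 none. Probe sets with 1 symbol gave 19937 genes, each by its probe set of highest mean; 954 genes had several. Control spots and background are not marked in the deposited table, so no value was treated as a bound.

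All 12 groups were fitted as means in limma 3.58.1 (R 4.3.3) with lmFit and eBayes with a mean-variance trend. Errors are moderated standard errors. P-values were two-sided and adjusted by Benjamini-Hochberg over all genes, with calls at an adjusted p under 0.05. The procedure was tested on simulated data. The labels call the samples of a group biological replicates of pooled mice.

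The 10 genes, the other gene lists and the tests were chosen with earlier results of these data known. All 10 genes are reported in every comparison. From the other lists, at most 3 called genes per direction with the largest difference are named, and for patterns the 2 genes with the highest r. Alternatives were the trend, array weights, quantile normalization, a filter on dim genes, the mean of a gene's probe sets, the replicate number as a block, the pool as a random block, fits of the compared populations alone, each history alone, leaving out nulliparous numbers 1 or 3, and leaving out each sample.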

Additional observations from a re-analysis of the deposited data

Results flagged for a closer look

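The parity effects on Tfap2c differed among the 6 populations by a test of the difference itself (F = 6.77, limma adjusted p = 0.0178), with an effect of -0.62 in stroma against 0.09 to 0.62 in the 5 epithelial populations. The stromal values, 4.81 to 5.77, all lay below the lowest median of an array, 5.813. The stromal effect did not pass the test on its own (limma adjusted p = 0.129). Without it F was 1.26 (limma adjusted p = 0.709), and the call was also lost without some single stromal samples.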

How the results depend on the processing

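Of the 26 calls of single genes in the comparisons above, 18 held in every alternative setting and in every fit that left out 1 sample, and 0 changed direction. The numbers of the 10 genes called in basal against luminal, Sca1-positive against Sca1-negative and stromal against total epithelial cells stayed within 1.5 times. For CD49f-high against CD49f-low basal cells, 2 in the reported fit became 0 with array weights, in those populations alone and in nulliparous samples alone. It became 1 with quantile normalization, without nulliparous number 1 or 3, and in parous samples alone. For parity, array weights gave 1 call in Sca1-negative luminal cells (Tfap2c, 0.59, limma adjusted p = 0.0265), against 0. The 1 call in basal CD49f-high cells became 0 with array weights, in that population alone and without nulliparous number 3. The 1 call of parity effects that differed among the 6 populations became 0 without nulliparous number 3 and without stroma. Leaving out each sample in turn gave 1 to 2 calls between the basal populations, 0 to 1 for parity in basal CD49f-high cells, 0 to 1 for the luminal against basal parity difference and 0 to 1 for the difference among 6 populations. The causes were not tested.

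The replicate block, with the number in the labels as a term, gave 1 call for the luminal against basal parity difference (Etv1, -1.04), against 0, and otherwise moved no count of calls by over 1.5 times. Samples of 1 history with the same number correlated in their deviations at 0.012 to 0.338 over 85 pairs of samples, 43 of them above 0.1, against -0.282 to 0.072 for different numbers. All 35 samples correlated best with their own number, a hint from the data that the numbers mark shared pools, which the labels do not say. The depth of arrays cannot be given, and 2 or 3 samples a group leave intervals of the parity effects wide.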

Other observations

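Genes of epithelial adhesion and junctions, a function that GRHL2 maintains, were lower in basal than in luminal cells in 17 of 17 cases. Of all genes, 19.5% were lower. The median difference was -1.15 against 0 over all genes, although Grhl2 itself did not pass the test there. In stroma 16 of 17 were lower than in total epithelium, with a median of -1.73, where 29.2% of all genes were called in either direction. Between the luminal populations Prom2 was higher in Sca1-positive cells, by 1.00, and Tjp3 lower, at -0.30. The other 15 did not pass the test, which 16.1% of all genes passed. A list of 10 luminal genes held keratins, mucins, Cd24a, Wfdc2 and Lcn2. Of these 10, 9 were lower in basal cells, Krt19 the most at -3.03, and Lcn2, the gene of lipocalin 2, was higher by 1.03. The median was -1.44, and all 10 were lower in stroma, with a median of -2.53.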
